A study of Mus musculus with 8 samples.

Results

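The regions described here are the Klf6 peaks whose summit lay more than 2 kb and at most 5 kb downstream of the nearest annotated transcription start site (TSS), as the deposited peak lists measure it. By this rule 135 peaks were members in OLP replicate A, 96 in OLP replicate B, 102 in iOL replicate A and 54 in iOL replicate B. Merged wherever at most 500 bp separated them, they formed 305 regions near 297 genes, out of 5480 regions with a gene named in the lists and 23152 regions in all. The distance and the presence of a gene name alone chose them, and no signal value did. OLP are oligodendrocyte progenitors, cultured from the cortex of C57BL/6 mice on postnatal days 6 to 7 by immunopanning for Pdgfra after removal of microglia. iOL are immature oligodendrocytes, obtained from such progenitors by 18 h of treatment with T3, triiodothyronine (40 ng/ml). Per the labels, the cells of both stages were cultured in bFGF (20 ng/ml) together with PDGF-AA (10 ng/ml). Chromatin was immunoprecipitated with a rabbit polyclonal antibody to Klf6 in 2 biological replicates of each stage. A peak list holds no expression, so the identity of the cells could not be checked against marker genes here.

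Klf6 is a zinc-finger transcription factor of the Krüppel-like family, whose members bind GC-rich and CACCC-type sequences and are known for binding close to promoters. The first introns of genes often hold enhancers and other regulatory elements, which is why the early gene body is examined beside the promoter. A distance from the start says nothing of where a gene ends, however, so that a site 2 to 5 kb downstream of a short gene lies beyond it.

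Sequences are shown here for the regions that recurred most, because 7 of the 9 regions found in all 4 samples matched another region in sequence. All coordinates are of mm9, and each sequence is that of the peak with the largest fold enrichment in its region, from the reference genome of the same build. Member regions at different genes often held similar sequence, and the other regions with a gene named were not searched in this way. The peaks at Acnat2 (chr4:49416088-49416225, plus strand) and Vmn1r167 (chr7:24285560-24285735, minus strand) were 93.4% identical over 137 aligned bases, which the capitals mark.
Acnat2: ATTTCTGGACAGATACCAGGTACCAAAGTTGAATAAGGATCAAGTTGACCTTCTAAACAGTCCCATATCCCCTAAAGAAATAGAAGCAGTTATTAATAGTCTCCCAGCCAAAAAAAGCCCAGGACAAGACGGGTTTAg
Vmn1r167: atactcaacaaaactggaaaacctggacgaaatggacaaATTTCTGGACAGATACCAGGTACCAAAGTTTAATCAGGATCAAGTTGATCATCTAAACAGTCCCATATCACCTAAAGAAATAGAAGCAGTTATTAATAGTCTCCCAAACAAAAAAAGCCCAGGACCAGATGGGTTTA
The peaks at Adam6b (chr12:114732031-114732254) and Olfr1084 (chr2:86475720-86475973), both on the plus strand, were 92.0% identical over the 75 bases in capitals.
Adam6b: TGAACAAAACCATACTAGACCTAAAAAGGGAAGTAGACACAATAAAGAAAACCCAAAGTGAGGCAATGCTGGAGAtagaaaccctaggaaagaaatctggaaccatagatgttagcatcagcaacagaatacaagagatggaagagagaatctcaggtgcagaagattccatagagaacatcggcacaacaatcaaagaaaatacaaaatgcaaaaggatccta
Olfr1084: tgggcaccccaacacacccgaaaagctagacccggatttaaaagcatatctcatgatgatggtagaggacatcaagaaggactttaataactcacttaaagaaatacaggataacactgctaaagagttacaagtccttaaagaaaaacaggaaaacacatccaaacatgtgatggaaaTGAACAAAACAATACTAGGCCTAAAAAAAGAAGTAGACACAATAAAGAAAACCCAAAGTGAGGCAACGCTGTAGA
At Tmprss11d (chr5:86797560-86797655) and Gm5132 (chrX:9146869-9146967), on the plus strand, the capitals mark what each shared with the peak at Vmn1r48 (chr6:89983174-89983258), 44 bases at 100% identity and 54 bases at 96.3% identity. The rest of these peaks did not match the Vmn1r48 peak, in which the capitals mark the part shared with Gm5132.
Tmprss11d: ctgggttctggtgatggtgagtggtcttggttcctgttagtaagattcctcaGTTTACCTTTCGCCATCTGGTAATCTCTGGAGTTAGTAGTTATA
Gm5132: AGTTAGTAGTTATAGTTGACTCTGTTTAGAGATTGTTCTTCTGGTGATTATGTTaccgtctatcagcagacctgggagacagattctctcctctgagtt
Vmn1r48: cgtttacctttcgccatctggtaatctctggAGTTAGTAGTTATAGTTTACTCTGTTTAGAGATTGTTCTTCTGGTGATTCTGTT

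The regions Olfr503 (chr7:115692204-115692302), Anks1b (chr10:89339580-89339733) and Tmem41a (chr16:21944031-21944193) are shown because each recurred and because their sequence is frequent in the genome. The capitals mark the 32 bases with the most copies in the genome on either strand, 9778 at Olfr503, 14547 at Anks1b and 23636 at Tmem41a.
Olfr503: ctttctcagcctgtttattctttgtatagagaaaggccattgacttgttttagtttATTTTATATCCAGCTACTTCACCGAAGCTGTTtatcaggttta
Anks1b: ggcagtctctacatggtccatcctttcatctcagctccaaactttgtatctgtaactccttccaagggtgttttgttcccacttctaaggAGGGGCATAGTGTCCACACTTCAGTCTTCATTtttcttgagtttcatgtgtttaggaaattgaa
Tmem41a: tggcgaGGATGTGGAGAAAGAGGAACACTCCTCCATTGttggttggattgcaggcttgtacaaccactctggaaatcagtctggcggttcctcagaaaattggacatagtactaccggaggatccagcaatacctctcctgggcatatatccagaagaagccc
The peak at 4931428L18Rik (chr1:31275265-31275522, plus strand) had the largest mean fold enrichment of all regions in 4 samples and held the CACCC-type core several times, read as GGGTGG on this strand and set in capitals.
4931428L18Rik: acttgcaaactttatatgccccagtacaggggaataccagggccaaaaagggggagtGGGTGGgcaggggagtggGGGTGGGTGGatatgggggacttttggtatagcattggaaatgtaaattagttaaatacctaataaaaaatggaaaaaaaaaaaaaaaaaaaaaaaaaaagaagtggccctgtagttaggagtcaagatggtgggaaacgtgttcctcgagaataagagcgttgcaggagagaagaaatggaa
Nhp2l1 (chr15:81875453-81875658, plus strand), Atl3 (chr19:7570891-7570992, minus strand) and Fgb (chr3:82851511-82851601, plus strand) stand for the largest group of similar regions, and were chosen after their values were seen. Nhp2l1 and Atl3 were 95.1% identical over 102 bases, and Fgb and Nhp2l1 were 94.6% identical over 56 bases.
Nhp2l1: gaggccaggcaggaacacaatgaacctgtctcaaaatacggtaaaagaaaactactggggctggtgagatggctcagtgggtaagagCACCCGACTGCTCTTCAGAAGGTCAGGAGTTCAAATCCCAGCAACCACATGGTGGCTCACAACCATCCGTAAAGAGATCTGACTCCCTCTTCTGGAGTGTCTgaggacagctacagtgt
Atl3: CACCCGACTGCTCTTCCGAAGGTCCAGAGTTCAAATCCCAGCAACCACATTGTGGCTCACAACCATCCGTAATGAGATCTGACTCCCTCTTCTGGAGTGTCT
Fgb: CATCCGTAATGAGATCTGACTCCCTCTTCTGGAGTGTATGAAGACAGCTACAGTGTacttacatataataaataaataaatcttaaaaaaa

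In contrast, 4 further regions were not repeated by the count of exact 32-base copies, which misses diverged copies. They were chosen as recurrent in iOL (Rfxank) or as near genes of the lists described further on (Bcl6, Cntn4, Tcf7l2). None of the 32-base stretches of the peaks at Rfxank (chr8:72659791-72659979), Cntn4 (chr6:105629698-105629860) and Tcf7l2 (chr19:55820222-55820422) occurred a second time in the genome. The peak at Bcl6 (chr16:23985557-23985697) held 1 CACCC-type core, in capitals as GGGTGG. Of its 110 stretches of 32 bases, 9 occurred more than once in the genome, up to 7 times. All 4 regions are given on the plus strand.
Rfxank: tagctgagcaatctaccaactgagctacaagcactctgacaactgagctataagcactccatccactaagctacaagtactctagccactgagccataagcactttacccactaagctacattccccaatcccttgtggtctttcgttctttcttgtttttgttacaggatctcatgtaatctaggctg
Bcl6: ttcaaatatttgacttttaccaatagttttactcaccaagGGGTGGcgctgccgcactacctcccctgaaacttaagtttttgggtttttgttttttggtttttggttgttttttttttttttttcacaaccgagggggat
Cntn4: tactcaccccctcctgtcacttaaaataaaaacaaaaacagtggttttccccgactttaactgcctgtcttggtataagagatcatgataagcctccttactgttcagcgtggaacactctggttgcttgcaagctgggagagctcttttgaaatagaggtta
Tcf7l2: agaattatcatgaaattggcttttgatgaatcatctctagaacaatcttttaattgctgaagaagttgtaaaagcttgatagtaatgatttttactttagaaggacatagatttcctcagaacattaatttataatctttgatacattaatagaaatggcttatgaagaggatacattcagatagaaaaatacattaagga

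The members rested on few tags (sequenced reads in the peak), as the other peaks did. Their median was 8 tags in both A samples and 12 in both B samples, next to 8 and, in OLP B and iOL B, 12 and 13 for the other peaks with a gene named. The lowest member had 7 tags in each A sample, 9 in OLP B and 10 in iOL B. Lists of 5777 to 12451 peaks holding 105081 to 152149 tags lie behind these values, and with so few tags per peak a site that was not called in a sample may have been missed at its depth. The fold enrichment, the tags at the summit over the background that the peak caller MACS expected, ran from 3.01 to 38.89 in OLP A with a median of 12.15, and from 5.63 to 30.41 in OLP B with a median of 7.88. In iOL A it ran from 3.25 to 49.62 (median 12.41) and in iOL B from 2.89 to 32.77 (median 9.51). In each of the 4 samples the median lay below that of the other peaks with a gene named, which was 14.58, 9.01, 14.89 and 10.57 in OLP A, OLP B, iOL A and iOL B. The mean difference was -1.77 in fold enrichment (exact sign flips of the 4 samples, two-sided, p = 0.13, the smallest value 4 samples can give). Many fold enrichments were multiples of a step fitted to each sample, about 2.43, 1.13, 2.48 and 1.06 in the same order. This held for 66.0%, 67.6%, 62.6% and 68.4% of all peaks of these samples. In each sample the difference of the medians was 1 step. Peaks from the start site to 2 kb downstream had medians of 12, 7.52, 11.35 and 6.34 in the same order. These were lower than the medians of the members, so low values were not particular to the band.

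**Figure D1:**
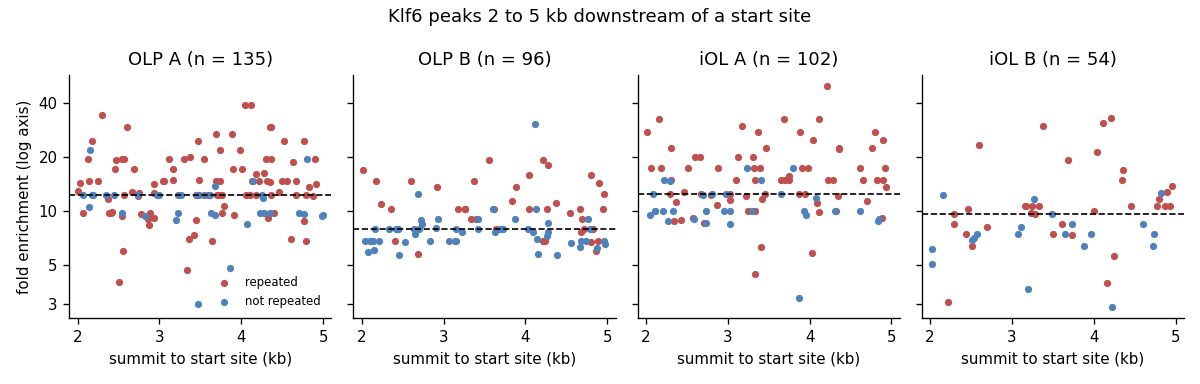
Fold enrichment (log axis) of each member peak against the distance of its summit from the start site in kb, 1 panel per ChIP sample. Red points are peaks in repeated sequence, blue points are the other peaks and the dashed line is the median. The medians of 12.15 and 12.41 in the A samples lie above the 7.88 and 9.51 of the B samples, and most of the highest points are red.

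The number of members was higher in the OLP sample of each replicate letter, and within each stage it was higher in replicate A. OLP had a mean of 115.5 ± 27.6 members (SD, n = 2) and iOL 78 ± 33.9 (SD, n = 2), a difference of 37.5 peaks that was not larger than the spread between replicates allows for (exact permutation test, two-sided, p = 0.67, where 2 samples against 2 cannot go below 0.33). OLP B with 96 members lay below iOL A with 102, so the stages overlapped. Members made up 4.92% and 5.83% of the peaks with a gene named in OLP A and OLP B, and 4.59% and 4.35% in iOL A and iOL B. Nothing says that the letters mark shared cultures, and p-values here measure only the spread between these samples.

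Along the band the members were spread without a gap. Of the OLP A members, 44 lay between 2 and 3 kb, 44 between 3 and 4 kb and 47 between 4 and 5 kb, and the same counts were 31, 25 and 40 in OLP B. In iOL A they were 36, 38 and 28, and in iOL B 14, 21 and 19. Just inside the lower edge lay peaks at Gm10377 (OLP A, 2011 bp), Atl3 (OLP B, 2017 bp, and iOL A, 2015 bp) and Olfr1164 (iOL B, 2025 bp), with fold enrichments of 12.89, 16.89, 27.29 and 6.09. Just outside it lay peaks at Cat (1993 bp, 9.72-fold in OLP A), Ccdc176 (1966 bp, 10.14-fold in OLP B) and Hist2h2bb (1995 bp, 17.37-fold in iOL A), and at the agouti gene, a (1985 bp, 8.46-fold in iOL B). The last members before the upper edge were those at Slc1a3 (4996 bp), Hoxa13 (4971 bp), Vmn1r167 (4929 bp) and Pglyrp3 (4952 bp), and the lists hold no peak beyond 4996 bp downstream.

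Set against the rest of the annotated range, the band held more peaks per kb than the first 2 kb of the gene. Members numbered 45, 32, 34 and 18 per kb of band in OLP A, OLP B, iOL A and iOL B, against 22.5, 25, 18 and 15.5 per kb from the start site to 2 kb downstream. The band at the same distance upstream, from 5 to 2 kb before the start, held 44.3, 24.7, 38.3 and 19.3 peaks per kb. The band downstream was thus the denser in both OLP samples and the sparser in both iOL samples (mean log2 ratio 0.03). Without repeated peaks, whose sequence has further copies in the genome, it was the denser in all 4 samples, with log2 ratios of 0.31, 1.26, 0.71 and 0.42 in OLP A, OLP B, iOL A and iOL B (mean 0.67). As position is what the rule used, these densities are a description.

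**Figure D2:**
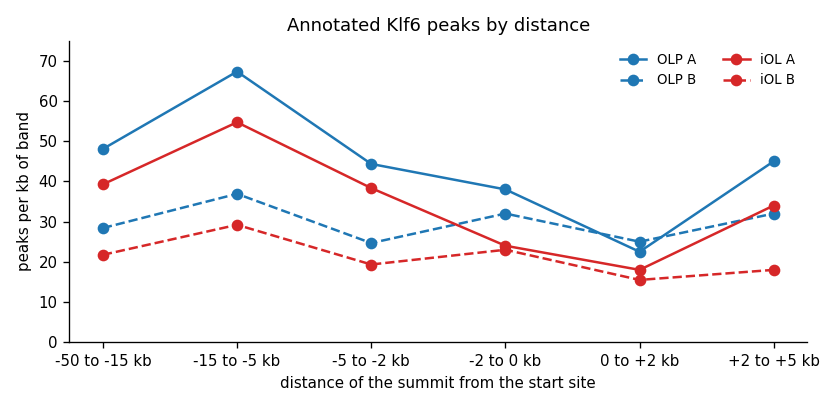
Peaks with a gene named per kb of band, by distance of the summit from the start site, with 1 line per ChIP sample and bands of unequal width set side by side. In OLP A the density is 67.3 per kb from 15 to 5 kb upstream, falls to 22.5 in the first 2 kb downstream and is 45 in the band from 2 to 5 kb downstream.

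Most members were called in 1 sample. Of the 305 regions, 258 (84.6%, 95% Wilson interval 80.1% to 88.2%) had a member in 1 sample, against 76.8% of all regions with a gene named. OLP A alone held 95 of them, OLP B 76, iOL A 61 and iOL B 26. Another 26 regions had members in 2 samples and 12 in 3 samples, and 9 regions (2.95%, 1.56% to 5.51%) had one in all 4, where 5.16% of all regions with a gene named did. The commonest pair was OLP A with iOL A, at 12 regions, and the commonest set of 3 was OLP A, iOL A and iOL B, at 10. The sets made of the replicates of a stage alone held 2 regions in OLP and 3 in iOL. How often all regions with a gene named fall into these pairs and sets was not counted.

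Between replicates, the share of members that recurred was below that of other peaks in each sample, by a difference that 4 samples cannot take past the threshold and that turned in iOL without repeated peaks. Of the OLP A members, 13 of 135 had an OLP B peak at most 500 bp away (9.63%, 95% Wilson interval 5.71% to 15.8%), against 20.9% of all OLP A peaks with a gene named. In OLP B, 14 of 96 members (14.6%, 8.89% to 23.0%) had an OLP A peak, against 34.1%. In iOL A, 23 of 102 (22.5%, 15.5% to 31.6%) had an iOL B peak, against 25.9%, and in iOL B 22 of 54 (40.7%, 28.7% to 54.0%) had an iOL A peak, against 45.3%. The intervals of both OLP samples thus lay below the share of all peaks, and those of both iOL samples held it. On average the share was 10.2 percentage points below that of the other peaks and it was lower in 4 of 4 samples (exact sign flips, two-sided, p = 0.13, the smallest possible), where the shares of a stage's replicates count the same overlaps and are not independent. Without repeated peaks the difference was -3.83, -3.20, 1.35 and 11.1 percentage points in OLP A, OLP B, iOL A and iOL B, and with at least 10 tags it was 7.06 percentage points in iOL A. Intervals cover counting error only. Peaks from the start site to 2 kb downstream recurred at 6.67%, 6%, 5.56% and 6.45% in OLP A, OLP B, iOL A and iOL B. That was a lower share than among the members in each sample, so low recurrence was not particular to the band.

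**Figure D3:**
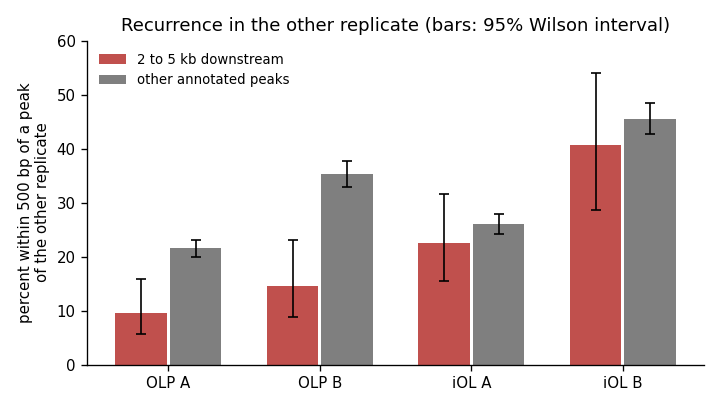
Percent of peaks with a peak of the other replicate within 500 bp, for the members (red) and the other peaks with a gene named (grey) of each ChIP sample, with 95% Wilson intervals. The shares of the members are 9.63% and 14.6% in OLP A and OLP B, below the grey bars, while in iOL A and iOL B their intervals reach across them.

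Recurrence rose with the MACS score, which is 10 times -log10 of the p-value of a peak. In OLP A, 1 of 54 members with a score under 50 had an OLP B peak, 7 of 69 between 50 and 100, and 5 of 12 with a score of 100 or more (41.7%, 19.3% to 68.0%). The other OLP A peaks recurred at 7.11%, 21.9% and 63.8% in the same classes. In OLP B, 0 of 55 members under 50 recurred (0%, up to 6.53% by the Wilson interval), against 18.8% of the other peaks, and 10 of 36 between 50 and 100 did, against 48.3%. Of the OLP B members with a score of 100 or more, 4 of 5 recurred (80%, 37.6% to 96.4%), against 81.1%. In iOL A the shares of members were 6.82%, 22.2% and 76.9%, next to 8.27%, 28.1% and 75.8% of the other peaks. The iOL B members recurred at 16%, 52.4% and 87.5%, next to 21.5%, 53.7% and 91.9%. In iOL the share of the other peaks thus lay inside the counting interval of the members in each score class.

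The 9 regions in all 4 samples lay at Olfr503, Olfr1084 and Olfr1002 (olfactory receptors), at Anks1b (a scaffold protein of the postsynaptic density), Tmprss11d (a serine protease of the airway), Acnat2 (an acyltransferase of peroxisomal bile acid and fatty acid conjugation), Adam6b (a sperm protein of the ADAM family), and at the predicted genes 4931428L18Rik and Gm5132. At 4931428L18Rik the fold enrichment was 38.89 in OLP A, 30.41 in OLP B, 32.25 in iOL A and 30.65 in iOL B, with 19, 28, 14 and 30 tags. The stages overlapped there, and the summits lay within a few bases of each other, 4114 to 4119 bp from the start site in intron 1. At Olfr503 it was 14.65 and 19.15 in OLP A and OLP B and 49.62 and 32.77 in iOL A and iOL B, so that both iOL values lay above both OLP values (16, 17, 20 and 31 tags). Anks1b had 19.98-fold and 14.64-fold enrichment in OLP and 27.29-fold and 29.6-fold in iOL, again with both iOL values the higher. Olfr1084 had 38.89, 15.77, 24.81 and 21.14 in OLP A, OLP B, iOL A and iOL B.

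At Gm5132 the same values were 29.17, 14.64, 19.85 and 23.25, and at Adam6b 29.17, 10.95, 22.33 and 16.91. In both of these, as in Olfr1084, the OLP replicates lay on either side of the iOL replicates. At Tmprss11d they were 19.45, 15.77, 27.29 and 11.63, and at Acnat2 19.45, 14.33, 24.81 and 12.68, the A samples being above the B samples. At Olfr1002 the region had 2 places. The OLP A, OLP B and iOL A peaks had 26.74-fold, 13.52-fold and 27.29-fold enrichment with summits 3887 to 3890 bp from the start, whereas the iOL B peak (10.57-fold) and a second iOL A peak (14.89-fold) lay at 3336 bp. Without the 500 bp gap it would not count as shared by all samples. Since fold enrichment is not normalized between samples and the A and B samples differ in background, no test was made on single regions.

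**Figure D4:**
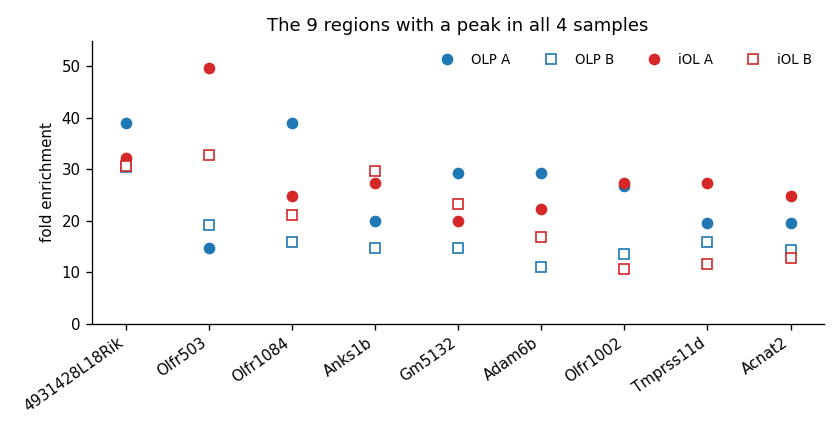
Fold enrichment in each ChIP sample at the 9 regions with a member in all 4, OLP in blue and iOL in red, replicate A as filled circles and replicate B as open squares. The largest value is 49.62 at Olfr503 in iOL A, and at 4931428L18Rik the values lie closest, between 30.41 and 38.89.

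Some regions recurred in 1 stage only, with no peak of the other stage within 500 bp. Their share among all regions with a gene named was not counted. In OLP they were Tmem41a (19.45-fold in OLP A and 19.15-fold in OLP B, with 9 and 18 tags, in intron 2) and the vomeronasal receptor gene Vmn2r8 (8.98-fold and 13.52-fold, with 8 and 15 tags, in intron 1). In iOL, outside the Egr1 region given further on, they were Vmn1r167, another vomeronasal receptor gene (13.45-fold in iOL A and 10.57-fold in iOL B, with 9 and 10 tags, 3981 bp past the end of the gene), and Rfxank (17.37-fold and 11.63-fold, with 9 and 29 tags). Rfxank encodes a subunit of the RFX complex, which activates MHC class II genes, and its peak lay in intron 3 of 9 exons. Of these, Tmem41a, Vmn2r8 and Vmn1r167 lay in repeated sequence and Rfxank did not.

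A peak was called repeated when over 50% of its stretches of 32 bases have a further copy in the genome, counting both strands. Only exact copies in the reference genome count, so diverged copies and copies that the assembly lacks are missed. By this measure 173 of the 305 regions (56.7%, 95% Wilson interval 51.1% to 62.2%) were repeated. The share rose with the number of samples, from 132 of 258 regions in 1 sample (51.2%, 45.1% to 57.2%) to 20 of 26 in 2 samples, 12 of 12 in 3 samples and 9 of 9 in all 4. The median number of genome copies of a region's stretches was 2 for regions in 1 sample, 60.5 in 2 samples, 48 in 3 samples and 2215 in all 4 samples. Mean fold enrichment rose as well, with medians of 9.72, 13.5, 18.9 and 21.7. Reads from such sequence can be placed at any of several copies, and how the aligner treated them is not given in the sources used here. Their part in the recurrence was not tested.

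**Figure D5:**
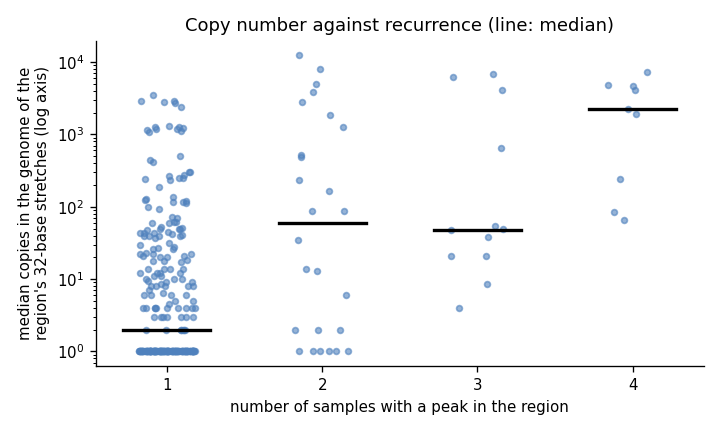
Median number of copies in the genome (log axis) of the 32-base stretches of each region, by the number of ChIP samples with a member there. Points are regions and lines are medians, which run from 2 copies for regions in 1 sample to 2215 for regions in all 4.

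Compared with other peaks, however, the share of members that were repeated was lower in each sample. Repeated were 99 of 135 members in OLP A (73.3%, against 86% of all its peaks with a gene named), 41 of 96 in OLP B (42.7%, against 68.9%), 71 of 102 in iOL A (69.6%, against 87.1%) and 34 of 54 in iOL B (63.0%, against 81.2%). The mean difference from the other peaks was -19.6 percentage points, with a lower share in 4 of 4 samples (exact sign flips, two-sided, p = 0.13, the smallest possible). From the start site to 2 kb downstream, the repeated share was 71.1%, 22%, 66.7% and 25.8% in OLP A, OLP B, iOL A and iOL B. It was lower there than among the members, so a low share was not particular to the band. Among the members that were not repeated, those that recurred were 1 of 36 in OLP A, 1 of 55 in OLP B, 2 of 31 in iOL A and 4 of 20 in iOL B (20%, 8.07% to 41.6%), whereas among repeated members it was 12 of 99, 13 of 41, 21 of 71 and 18 of 34. Among the other peaks that were not repeated it was 6.61%, 5.02%, 5.1% and 8.92% in OLP A, OLP B, iOL A and iOL B. Among the other peaks that were repeated it was 23.8%, 47.9%, 28.9% and 53.5%. Repeated members recurred less than these in OLP A and OLP B (12.1% and 31.7%) and about as often in iOL A and iOL B (29.6% and 52.9%). The fold enrichment of members that were not repeated had medians of 11.94, 7.55, 9.92 and 7.4, next to 11.66, 6.76, 11.37 and 7.4 for other peaks that were not, so that the lower medians of the members did not hold within this class (mean difference -0.095 in fold enrichment). Repeated members had medians of 14.12, 10.14, 14.89 and 10.57, next to 14.58, 10.14, 14.89 and 10.57 for other repeated peaks, lower in OLP A only.

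Similar sequence linked many members directly. In a search of the regions against each other (BLAST, E value at most 1e-10), 120 of the 305 (39.3%, 95% Wilson interval 34.03% to 44.93%) matched at least 1 other region, among them 18 of the 21 regions found in 3 or 4 samples. In 108 of the 120 the summit lay inside a matching stretch. The search covered the members only, so no share of all regions with a gene named stands beside these counts. The matches formed 20 groups, of which 3 had over 20 regions each and held 70 regions in all. The largest, of 25 regions, had Nhp2l1, Atl3 and Fgb as the members found in 3 samples. Fgb, the fibrinogen beta chain gene, had 21.88-fold, 32.25-fold and 12.19-fold enrichment in OLP A, iOL A and iOL B. The second, of 24 regions, held Anks1b, C1ra (a complement protease), Olfr98, Olfr1101 and the defensin pseudogene Defa-ps13. The third, of 21 regions, had 1 region in more than 1 sample.

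Where the gene named in the lists could be found in the reference annotation (GENCODE, 270 of 305 regions), the summit of 191 regions (70.7%, 95% Wilson interval 65.1% to 75.8%) lay inside that gene. Introns held 184 of them, untranslated exon parts 5 and coding sequence 1 (Rbm12b1). Of the 184, 116 lay in intron 1 (63.0%, 55.9% to 69.7%), 42 in intron 2 and 14 in intron 3. A place in an early intron follows in part from the rule, which took summits 2 to 5 kb from a start. The share for other positions at that distance was not counted, so these values show no preference for intron 1. The other 79 regions lay outside the gene, so that early gene body describes part of the members only. Of these, 71 could be placed past the end of a transcript of that gene, whose median length was 972 bp, against 28717 bp for genes with a region inside. The summit lay a median of 2423 bp past that end, and 8 of the 79 regions were inside another gene. Of the 191 regions inside the gene named, 14 lay in another gene as well. For 150 of the 305 regions (49.2%) the peak lists gave a start site of another gene in range too. The gene named is thus not the only gene near many regions. That share among all regions with a gene named was not counted.

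Chemosensory receptor genes were frequent among the regions outside the gene named. All 22 regions at olfactory receptor genes, which have a single short coding exon, were outside the gene, as were 16 of the 20 matched regions at vomeronasal receptor genes. Olfactory receptor regions made up 7.21% of the members and 7.26% of all regions with a gene named, and vomeronasal ones 7.21% and 5.51%. Of the olfactory receptor regions 8 were found in 2 or more samples and 3 in all 4. Predicted and Riken genes accounted for 63 regions (20.7%, against 20.1% of all), 50 of them repeated. Zfp genes had 7 regions, of which OLP B held 5 (2.30% of the members, against 1.81% of all regions with a gene named). Solute carriers had 2 (0.66%, against 1.35%), P450, conjugation and protease-inhibitor genes 3 (0.98%, against 1.73%) and cell adhesion genes 4 (Cdh1, Cntn4, Pcdhb4 and Pcdhb18, 1.31%, against 0.75%). Those at microRNA genes were 3 (0.98%, against 0.89%), at Mir137, Mir706 and Mir1904, all past the short precursor.

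Several of the peaks with the most tags had low fold enrichment. Rn45s, which encodes the precursor of ribosomal RNA, had a single broad peak of 1372 tags in OLP A (3.01-fold) and of 3300 tags in iOL B (2.89-fold), spanning chr17:39979932-39985782, and no peak in the other samples. 4930468A15Rik had 206 tags in OLP A (4.81-fold) and 172 in iOL A (3.25-fold), and Pisd-ps2, a pseudogene, 197 tags in iOL B (3.09-fold). Gm15319 had 67 tags in OLP A (3.99-fold), Gm13212 34 in OLP B (5.73-fold) and Gm7120 36 in iOL B (3.63-fold). Il31ra, a cytokine receptor gene related to gp130, had a peak in intron 1 in both A samples, with 33 tags and 9.85-fold enrichment in OLP A and 32 tags and 8.81-fold in iOL A. Gm15915 had 32 tags in OLP B (12.39-fold) and 11 in iOL A (9.02-fold). By contrast, the largest fold enrichments of OLP B after 4931428L18Rik were 19.15 at both Tmem41a and Olfr503, those of OLP A after 4931428L18Rik and Olfr1084 were 34.03 at Defa-ps13, and those of iOL A after Olfr503 were 32.25, shared by 4931428L18Rik, Fgb and Olfr1101.

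The cores CCACCC and CCGCCC, of the CACCC and GC-box type that Krüppel-like factors are known to bind, were searched on both strands within 100 bases of each summit. The cores can overlap by a few letters, and a peak with either counts once. At least 1 was found at 12 OLP A members (8.89%, against 5.87% of all OLP A peaks with a gene named), 11 OLP B members (11.5%, against 4.98%), 9 iOL A members (8.82%, against 5.9%) and 5 iOL B members (9.26%, against 8.29%). The share was higher than in the other peaks in 4 of 4 samples, by a mean of 3.53 percentage points (exact sign flips, two-sided, p = 0.13, the smallest possible), although the same regions recur in the samples, which are then not independent. Without repeated peaks the mean difference was -1.30 percentage points, higher in OLP B and iOL A and lower in OLP A and iOL B. From 5 to 2 kb upstream the share was 7.52%, 10.8%, 6.09% and 12.1% in OLP A, OLP B, iOL A and iOL B, above the members in iOL B only. In the 2 kb before the start it was 7.89%, 14.1%, 12.5% and 23.9%, above the members in all but OLP A. A raised share was thus not particular to the band. Members not called repeated that held a core included the peaks at Nek6 (a mitotic kinase gene, 12.15-fold in OLP A), Bcl6 (9.92-fold in iOL A), Cd63 (a tetraspanin gene, 9.01-fold in OLP B), Elmod2 (7.88-fold in OLP B), Ier2 (an immediate-early gene, 7.55-fold in OLP B) and Tanc2 (5.02-fold in iOL B). The GC content within 100 bases of the summit was 39.4%, 35.7%, 41.5% and 40.8% in OLP A, OLP B, iOL A and iOL B, next to 39.1%, 37.2%, 39.6% and 40.8% for the other peaks (mean difference 0.18 percentage points, exact sign flips, two-sided, p = 0.63).

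Among 48 genes of the oligodendrocyte lineage and of myelin, 1 had a member and 6 had a peak anywhere in the annotated range. Of all 3888 genes with a peak in that range, 297 (7.64%) had a member. A count of 1 among 6 genes cannot be told from that share. The gene with a member was Tcf7l2, an effector of Wnt signalling that oligodendrocytes need to differentiate. It had 14 tags and 7.88-fold enrichment in OLP B alone, 4026 bp from the start in intron 3 (score 52.7). Omg, the oligodendrocyte myelin glycoprotein gene, was not on that list and was picked after its values were seen. It had 11 tags and 6.16-fold enrichment in OLP B, 4878 bp from its start and 1775 bp past its end.

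Of the 20 genes that the study lists as both changed on Klf6 silencing and near a Klf6 peak, 4 had a member and 18 had a peak anywhere in the annotated range. Of all 3888 genes named in the peak lists, 297 (7.64%) had a member. Those genes include ones named for peaks as far as 50 kb upstream, whereas the study compared peaks from 15 kb upstream to 5 kb downstream. The counts are thus over unlike ranges and were not tested against each other. The study chose its 20 genes partly on these samples, so that their count is not independent evidence. Egr1, an immediate-early transcription factor, had 8 tags and 8.78-fold enrichment in iOL A at 4832 bp and 11 tags and 8.46-fold in iOL B at 4606 bp, with 0 OLP peaks within 500 bp. The iOL A and iOL B peaks shared no base and count as 1 region through the 500 bp gap only. Both peaks lay past the end of the gene, by 1054 and 828 bp, in sequence that occurs once in the genome, and both held a CACCC-type core. Bcl6, a transcriptional repressor, had 7 tags and 9.92-fold enrichment in iOL A at 3030 bp in intron 1. Cntn4, a neuronal adhesion protein of the contactin family, had 7 tags and 12.15-fold in OLP A at 2072 bp in intron 1. Fbn2, the gene of the matrix protein fibrillin 2, had 11 tags and 7.88-fold in OLP B at 2438 bp in intron 2 of 65 exons. The last 3 were called in 1 sample each, and Bcl6 and Cntn4 rested on as few tags as any member of their sample.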

How the data were processed

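Klf6 ChIP-seq of 4 samples was analysed, 2 of OLP and 2 of iOL. The 4 input samples are not analysed here. By the study's methods, the authors kept reads of high quality (FASTX), aligned them to mm9 with Bowtie2, called peaks sample by sample over input using MACS (version not given in the sources used here) and annotated them with RefSeq start sites. The submitters' processing notes name CASAVA 1.8 as well. As deposited, the tags of a peak are a count with no scaling. The deposited score is -10*log10 of the p-value. The deposited fold enrichment is a linear ratio over the expected background. The deposited FDR is in percent. The deposited distances are in bp. The number of aligned reads is not given in the sources used here, so the depth is known through tags in peaks only, and values were not normalized between samples.

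The members and the gene lists were chosen with earlier results of these data known. Peaks with a gene named and a distance above 2000 and up to 5000 bp were taken, and peaks with at most 500 bp between them were merged. No further limit on tags, score or FDR was set. Some items are not reported here. The named regions are those with a member in all 4 samples, those in both replicates of 1 stage alone, those at genes of the 2 lists, the 3 members per sample with the most tags and the largest fold enrichment, and those nearest the edges of the band. Stages were compared by exact permutation and members with other peaks by exact sign flips within samples, and shares have 95% Wilson intervals. Gene positions, GC content, cores and copies (32 bases) came from the reference genome of the same build (NCBIM37) and its GENCODE annotation. Of the regions, 264 matched that annotation by symbol and 6 by accession or older symbol, through a RefSeq table of a later assembly used for names only. Similar regions were found with BLAST 2.17.0, and single linkage made the groups. The counting of overlaps and copies was tested on simulated data and found 150 of 150 simulated overlaps and 100 of 100 simulated repeats. Statistics used scipy 1.17.1, and copies were counted with numba 0.67.0 under Python 3.11.15. The alternatives tried were peaks with at least 10 tags, those scoring 50 or more, an FDR under 5%, a band up to 4000 bp, other gaps, each replicate left out, other annotation choices and, added after seeing the data, the peaks without repeated sequence.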

Additional observations from a re-analysis of the deposited data

Results flagged for a closer look

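The density of members relative to the band 5 to 2 kb upstream was picked out because both samples of a stage went one way and both of the other stage the opposite way. The log2 ratio of peaks per kb was 0.022 in OLP A and 0.38 in OLP B, and -0.17 in iOL A and -0.10 in iOL B. The difference between the stages was not tested. Without repeated peaks the ratio was 0.31, 1.26, 0.71 and 0.42 in OLP A, OLP B, iOL A and iOL B, so that the stages no longer went opposite ways.

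The share of peaks found in the other replicate showed such a split too. Members minus the upstream band, the difference was -6.16 percentage points in OLP A and -15.1 in OLP B, and 3.42 percentage points in iOL A and 2.81 in iOL B. This difference was not tested either, and the replicates of a stage share the overlaps that are counted.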

How the results depend on the processing

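Of the alternatives tried, 98 left the result on its side of the threshold, in its direction or near its size, 11 moved its size and 5 reversed its direction. The smallest p-values the tests could give were 0.13, 0.33 and 0.5, and 0.25 for sign flips with 1 replicate left out. No test could therefore cross the threshold, and for tests only the direction could change. A minimum of 10 tags left 168 regions of 305, a score of at least 50 left 140 and leaving out repeated peaks left 136. The regions in all 4 samples fell from 9 to 3 in the band up to 4000 bp and to 0 without repeated peaks. With each replicate left out they numbered 9 to 19 (19 without OLP B). The share of OLP A members with an OLP B peak was 19.6% with at least 10 tags and 2.78% without repeated peaks. The share of iOL A members with an iOL B peak was 54.2%, 6.45% and, asked of iOL B members, 40.7%. The GC difference turned to -1.61 percentage points without repeated peaks, and ran from -0.40 (without iOL A) to 0.75 with each replicate left out. The density ratio to the upstream band ran from -0.085 (without OLP B) to 0.098 with each replicate left out, and was 0.12 with at least 10 tags and with the band up to 4000 bp, and 0.67 without repeated peaks. Without repeated peaks the recurrence difference from other peaks turned to 1.35 percentage points and the difference in cores to -1.30. The fold enrichment difference kept its sign but was -0.33 with at least 10 tags, where the iOL A difference was positive, and -0.095 without repeated peaks. The cause of these shifts was not tested. With the replicate letter as a block, the OLP samples had 33 and 42 members more, a mean of 37.5 (exact sign flips, p = 0.5, the smallest that 2 pairs can give). The labels share only a letter between stages, and 2 pairs cannot show whether it pairs the samples. Leaving out a replicate moved the stage difference from 13.5 (without iOL B) and 18 (without OLP A) to 57 (without OLP B) and 61.5 (without iOL A).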

Other observations

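Regions not repeated by the measure used that were found in more than 1 sample numbered 6, and were picked out after their values were seen. Besides Egr1, Rfxank, Gm15915, Rn45s and 4930468A15Rik they were completed by Dpysl3, a gene of axon growth of the collapsin response mediator family, with peaks in intron 1 in OLP A (7 tags, 10.57-fold) and iOL A (11 tags, 17.19-fold). The OLP A peak lay within the repeated part of that region, and the iOL A peak held a CACCC-type core. Egr1 is among the 6 through the 500 bp gap only, as its iOL A and iOL B peaks shared no base. At Rn45s some stretches had up to 4 copies in the reference genome, and copies that the assembly lacks were not counted. Its place among the 6 therefore does not show single-copy sequence.

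Chromosome X held 21 of the 305 regions (6.89%, 95% Wilson interval 4.55% to 10.3%), next to 7.81% of all regions with a gene named.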
